A study of Mus musculus with 2 samples.

Results

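Conventional natural killer (NK) cells that carry the integrin gene Itga2 were followed in leukocytes sorted from mouse melanomas. They were 345 of 18539 kept cell barcodes: 210 of 8444 in the Control library and 135 of 10095 in the DOPAC library. A cell was counted among them on its own unique molecular identifiers (UMIs), each of which marks 1 captured transcript. Kept barcodes had 500 UMIs or more, 200 genes or more, and mitochondrial UMIs of up to 10%. A gated cell also had at least 1 UMI of Itga2 and at least 1 UMI of Ncr1 or Klrb1c. It showed 0 UMIs of Cd3d, Cd3e, Cd3g, Cd8b1, Gzmc, Cd79a, C1qa, C1qb and Csf1r. The cells were thus chosen by the measured UMIs of these 12 genes, whose levels are given as a description only.

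The libraries came from flow-sorted CD45+ cells, that is leukocytes, of tumors grown from the melanoma line B16-F10. All mice carry the genotype label WT. Control mice received vehicle, and DOPAC mice received DOPAC, 3,4-dihydroxyphenylacetic acid, which arises when dopamine is broken down. The design text gives 4 mice per group, but each group is 1 library whose cells are not tagged by mouse. No difference between the libraries therefore has a replicate check, and no test or p-value is given. The labels' cell type is lymphocyte, their protocol text speaks of colon while the tissue label says tumor, and no strain, age, dose or treatment time is given. In Control the gated cells summed to 1256105 UMIs, and the median cell had 5681 UMIs from 2215 genes. In DOPAC they summed to 392860 UMIs, and the median cell had 2502 UMIs from 1248 genes. This depth gap ran through the whole libraries, whose kept cells had medians of 9571.5 and 3677 UMIs. Between the libraries 32 barcodes were shared. Of these, 3 belonged to a gated cell in 1 of the libraries, and 0 were gated in both.

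NK cells kill tumor and infected cells without a rearranged antigen receptor. They weigh signals from activating receptors, such as NKp46 (Ncr1) and NK1.1 (Klrb1c), against inhibitory Ly49 and NKG2A receptors that read MHC class I on the target. Conventional NK cells circulate, carry CD49b (Itga2), depend on the transcription factors Eomes and T-bet (Tbx21), and release perforin, granzymes, interferon gamma and CC chemokines. Tissue-resident innate lymphoid cells and NK cells altered in tumors resemble them, but tend to carry CXCR6, CD49a or additional granzymes.

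Levels are given as CPM: the UMIs of a gene summed over the gated cells of a library and scaled by all UMIs of those cells to a common total. Intervals are 95% intervals for counting error only. A gene was called apart between libraries when its log2 ratio of DOPAC over Control, taken with 1 UMI added to each sum, passed 1.5-fold in either direction. At least 20 UMIs in the sums together were required, and 6969 genes had them. Folds in the text are ratios of CPM with exact intervals.

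The cells carried the genes of their label. Itga2, which lies on chromosome 13 at 114833081 to 114932100 on the minus strand of GRCm38, gave 624 UMIs (497 CPM) in Control and 227 UMIs (578 CPM) in DOPAC. Ncr1, on chromosome 7 at 4337724 to 4345164 on the plus strand, stood at 154 CPM (133 to 177) and 160 CPM (123 to 205). Klrb1c, on chromosome 6 at 128778485 to 128789215 on the minus strand, stood at 438 CPM (402 to 476) and 407 CPM (347 to 475). These genes set the gate. Among genes the gate did not use, Eomes, which conventional NK cells need, stood at 274 CPM (246 to 304) in Control and 234 CPM (189 to 287) in DOPAC. The intervals of Eomes overlapped between libraries. Zfp683 (Hobit), a factor of tissue-resident lymphocytes, had 0 UMIs in both libraries, and Cxcr6 had 0 in Control and 2 in DOPAC. The granzyme genes Gzmd, Gzme, Gzmg and Gzmn had 0 UMIs in both. They lie near Gzmc on chromosome 14, and the gate required Gzmc to be at 0. Their counts are thus a description and no independent check of the label.

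Many marker lists of other cells gave little RNA in the gated cells, but Lyz2 and Cd74 were found in most Control cells. All 6 basophil and mast cell genes were at 0 in both libraries, although basophils also carry CD49b. The 6 platelet genes summed to 44.6 CPM in Control, mostly Pf4 with 48 UMIs, and were all at 0 in DOPAC. Pf4, platelet factor 4, was thus at least 5.0-fold lower in DOPAC against a floor of 3 UMIs over the gated cells. The 7 monocyte and macrophage genes summed to 336 CPM and 270 CPM, with none at 0 in either library. The 8 dendritic cell genes summed to 1647 CPM in Control and 644 CPM in DOPAC, where 5 of them were at 0. Their main member was Cd74, the MHC class II invariant chain, at 762 CPM and 300 CPM. B-cell genes summed to 88.4 CPM and 28.0 CPM, with 1 and 5 of 6 at 0. The 11 T-cell genes summed to 834 CPM and 949 CPM, mostly the beta chain constant gene Trbc1 with 480 CPM and 565 CPM. The alpha chain constant gene Trac stood at 24.7 CPM and 35.6 CPM. NK cells are known to transcribe unrearranged T-cell receptor constant genes. Gamma delta T-cell genes summed to 53.3 CPM and 45.8 CPM. Innate lymphoid cell genes of groups 2 and 3 summed to 0.796 CPM and 0 CPM. Neutrophil genes stood at 6.37 CPM and 7.64 CPM, melanoma genes at 8.76 CPM and 10.2 CPM, and red-cell genes at 43.8 CPM and 2.55 CPM. Platelet, B-cell, dendritic cell and red-cell genes were thus higher in the gated Control cells, and their part in the differences was measured only by leaving out the cells named next. In 3 Control cells and 2 DOPAC cells, more than 0.5% of UMIs came from Lyz2, Apoe, Cd74, H2-Aa and H2-Ab1 together. These few cells held 57.3% of all Cd74 UMIs in Control and 58.5% in DOPAC. Without these 5 cells, 950 genes were called higher and 1282 lower in DOPAC, close to the 972 and 1301 with them. Cd74 had a UMI in 177 of 210 Control and 39 of 135 DOPAC gated cells, and Lyz2 in 145 and 32. The depth of the cells also differed in these shares. RNA spread in this way over many cells was not removed, and its part in the differences was not tested.

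**Figure D1:**
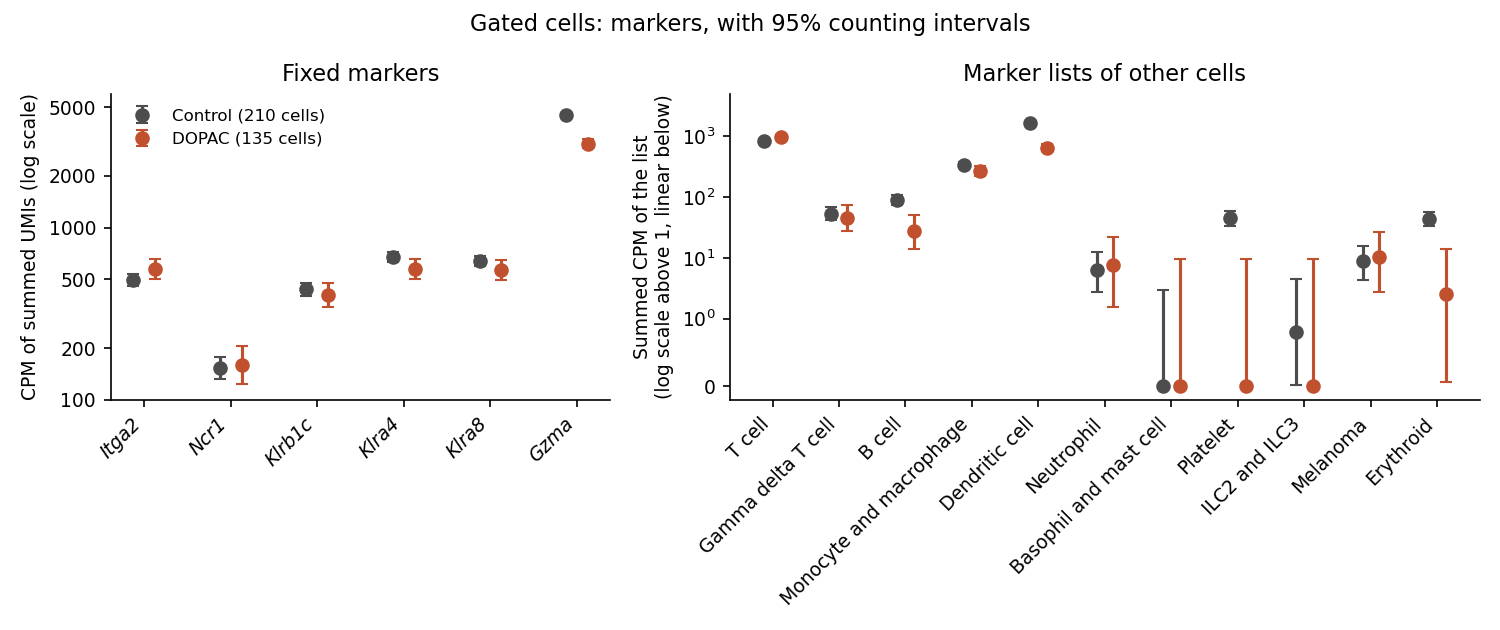
Left, CPM of the gate genes Itga2, Ncr1 and Klrb1c and of Klra4, Klra8 and Gzma in the gated cells of each library on a log axis, with 95% counting intervals. Right, summed CPM of 11 marker lists of other cells, linear below 1 and logarithmic above; the dendritic cell list reaches 1647 CPM in Control, and basophil and mast cell genes are at 0 in both libraries.

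The gated cells made up a smaller share of the DOPAC library with every UMI counted, but no difference was detectable once the cells were set to 1 depth. They were 2.49% (2.17 to 2.84) of kept Control cells and 1.34% (1.12 to 1.58) of kept DOPAC cells. The difference was -1.15 percentage points (-1.56 to -0.755). The same gate without its conditions on Itga2 and Gzmc held 411 Control cells (4.87%) and 552 DOPAC cells (5.47%). It kept the conditions against other cells, so NK cells with a UMI of those genes are not counted. Its difference of 0.601 points (-0.0415 to 1.24) has an interval that includes 0. In cells thinned at random to 1000 UMIs, this wider gate held 4.24% of Control and 3.56% of DOPAC cells, a difference of -0.681 points (-1.25 to -0.115), so its direction turned at matched depth. Of these NK cells, the cells with Itga2 and without Gzmc were 51.1% (46.1 to 56.0) in Control and 24.5% (20.9 to 28.3) in DOPAC. In the thinned cells, gated again, they were 61 of 354 (17.2%, 13.4 to 21.6) and 52 of 345 (15.1%, 11.5 to 19.3). The difference then was -2.16 points (-7.62 to 3.33), so in thinned cells no difference was detectable. Thinning also lowers the UMIs of genes that had to be at 0, so it can let other cells into the gate. Of all thinned cells they were 0.731% in Control and 0.537% in DOPAC, and that difference of -0.194 points (-0.437 to 0.0377) also has an interval that includes 0. Among unthinned cells of 3000 to 10000 UMIs the gate held 4.85% in Control and 0.845% in DOPAC. This window kept 195 of the 210 gated Control cells but 46 of the 135 gated DOPAC cells. The median gated DOPAC cell, with 2502 UMIs, lies below the window, so the window does not set the cells to 1 depth as thinning does. How much of the difference goes with depth was not tested. NK cells with Gzmc or Cxcr6 and no Itga2 went the other way, with 14 cells (3.41%) in Control and 66 (12.0%) in DOPAC. After thinning these were 1.98% (0.799 to 4.03) and 5.22% (3.12 to 8.12), a difference of 3.24 points (0.452 to 6.29).

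Many gated cells stood at the threshold of the rule. Exactly 1 Itga2 UMI was found in 77 Control cells (36.7%) and 86 DOPAC cells (63.7%). Just outside, 176 Control and 339 DOPAC NK cells had no UMI of Itga2, Gzmc or Cxcr6. The conditions against other cells also removed unequal shares. Of cells with Itga2 and an NK receptor, 320 of 613 (52.2%) in Control had a UMI of C1qa, C1qb or Csf1r, against 40 of 277 (14.4%) in DOPAC. These 3 genes mark macrophages. With up to 2 of their UMIs allowed, the gate held 381 Control cells (4.51%) and 145 DOPAC cells (1.44%).

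**Figure D2:**
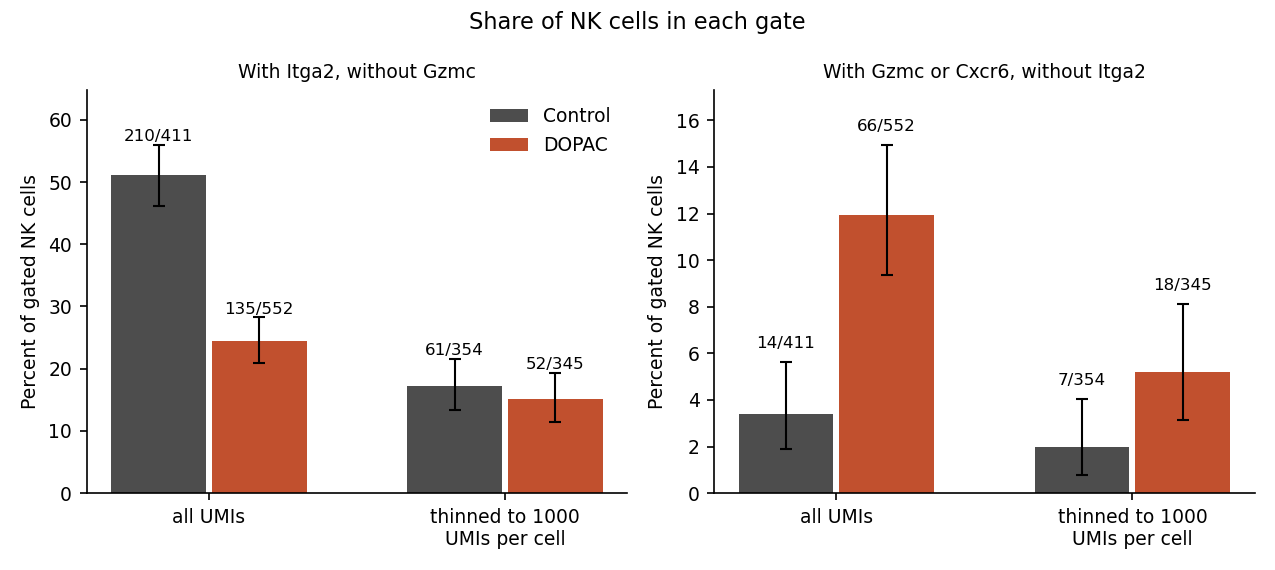
Percent of all gated NK cells that had Itga2 without Gzmc, and that had Gzmc or Cxcr6 without Itga2, in each library, with every UMI counted and after thinning each cell to 1000 UMIs; numbers over the bars are cells and error bars are 95% exact intervals. The shares with Itga2 are 51.1% and 24.5% with every UMI counted and 17.2% and 15.1% after thinning.

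Receptors of the Ly49 family, which the gate did not use, lay within 1.5-fold between libraries for 6 of the 7 measured genes. Over the gated cells, 13.9% of tested genes were called higher in DOPAC and 18.7% lower. These shares were 6.27% and 9.99% where the interval also had to leave out 1. The counts given for each list below are to be read beside the 13.9% and 18.7%. The called genes numbered 972 higher and 1301 lower, and 1243 and 1025 when the median of gene ratios set the scale. Of 11 Ly49 genes, 7 reached 20 UMIs, 0 were higher and 1 was lower, with a median log2 ratio of -0.23 against -0.05 over all tested genes. The genes lie side by side on chromosome 6 and are near-copies, so reads of 1 member may have been counted for another or discarded. The stretches of 250 bases before the RefSeq starts of Klra4 and Klra8, the members with the most UMIs, show how alike these copies are: of 249 aligned bases 212 are identical (85.1%). They are printed here 5′ to 3′ on the genes' minus strand, from RefSeq on GRCm38.p6, with Klra4 at chr6:130067272-130067521 and Klra8 at chr6:130129899-130130148.
Klra4: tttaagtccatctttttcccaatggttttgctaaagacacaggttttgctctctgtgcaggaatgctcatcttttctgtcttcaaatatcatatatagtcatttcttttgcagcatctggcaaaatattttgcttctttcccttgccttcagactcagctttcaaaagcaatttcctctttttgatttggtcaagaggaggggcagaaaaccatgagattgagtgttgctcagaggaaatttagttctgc
Klra8: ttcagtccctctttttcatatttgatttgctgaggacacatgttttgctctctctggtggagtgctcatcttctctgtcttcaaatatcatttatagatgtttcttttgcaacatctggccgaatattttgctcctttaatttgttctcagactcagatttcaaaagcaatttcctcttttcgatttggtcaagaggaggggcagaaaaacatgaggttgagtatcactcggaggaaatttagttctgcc

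Klra4 (Ly49D), unlike most of its family an activating receptor, lies at 130043731 to 130067271 and gave 849 UMIs, or 676 CPM (631 to 723), in Control. It gave 226 UMIs, or 575 CPM (503 to 655), in DOPAC, which is 1.17-fold lower (1.01 to 1.37). Klra8 (Ly49H), also activating and known for recognition of a cytomegalovirus protein, lies at 130115226 to 130129898. It stood at 639 CPM (596 to 685) and 570 CPM (498 to 650), with overlapping intervals. The inhibitory receptors Klra7 (Ly49G) and Klra9 (Ly49I) stood at 300 CPM and 193 CPM in Control and at 339 CPM and 206 CPM in DOPAC. Klra3 (Ly49C) had 143 CPM and 109 CPM, 1.30-fold lower with an interval (0.929 to 1.86) that includes 1. Klra1 (Ly49A) was the member called lower, from 47 UMIs to 8, and its interval (0.860 to 4.50) also includes 1. Klra4 and Klra8 thus gave similar sums in both libraries, and no member gave a difference of 1.5-fold with an interval that leaves out 1.

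Ly49 genes are switched on in some NK cells and not in others, so the receptors were also counted per cell. To compare cells at 1 depth, each was thinned to 1000 UMIs, which left out 0 gated cells. B cells, which should lack these genes, served as background. There were 722 in Control and 19 in DOPAC, with median depths of 4447.5 and 1674 UMIs, of which 720 and 18 reached 1000 UMIs. Klra4 was found in 37.1% (30.6 to 44.1) of gated Control cells and 29.6% (22.1 to 38.1) of gated DOPAC cells, against 0 B cells in both. The upper limit that a count of 0 allows was 0.417% of the Control B cells and 16.7% of the DOPAC B cells. Without thinning the gated shares were 55.2% and 45.2%. Klra8 was found in 37.6% and 31.9%, against 0.278% and 0% of B cells, and without thinning in 61.4% and 51.1%. For Klra7 the thinned share was 21.4% in Control and 28.9% in DOPAC. The intervals overlapped between the libraries for all 3 genes.

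In thinned cells, no Ly49 gene was detected in 23.8% of Control and 24.4% of DOPAC cells, and 3 or more were detected in 12.9% and 8.89%. With every UMI counted, 3 or more were detected in 54.8% and 32.6%, a gap in which the depth of the cells also differed. Klra8 was found at similar shares with and without Klra4: in Control, Klra8 was found in 38.5% of thinned cells with Klra4 and 37.1% of those without. In DOPAC these shares were 30.0% and 32.6%. Klra9 was found in 5.13% (1.41 to 12.6) of thinned Control cells with Klra4 and 16.7% (10.7 to 24.1) of those without. In DOPAC the shares were 17.5% (7.34 to 32.8) and 10.5% (5.16 to 18.5). These intervals overlapped within each library. Without thinning, the shares with and without Klra4 were 32.8% and 43.6% in Control and 22.95% and 31.1% in DOPAC. Both libraries then went the same way, again with overlapping intervals, so no difference between them is read from this pair. A UMI count of 0 in a thinned cell does not show that the cell lacks the receptor.

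**Figure D3:**
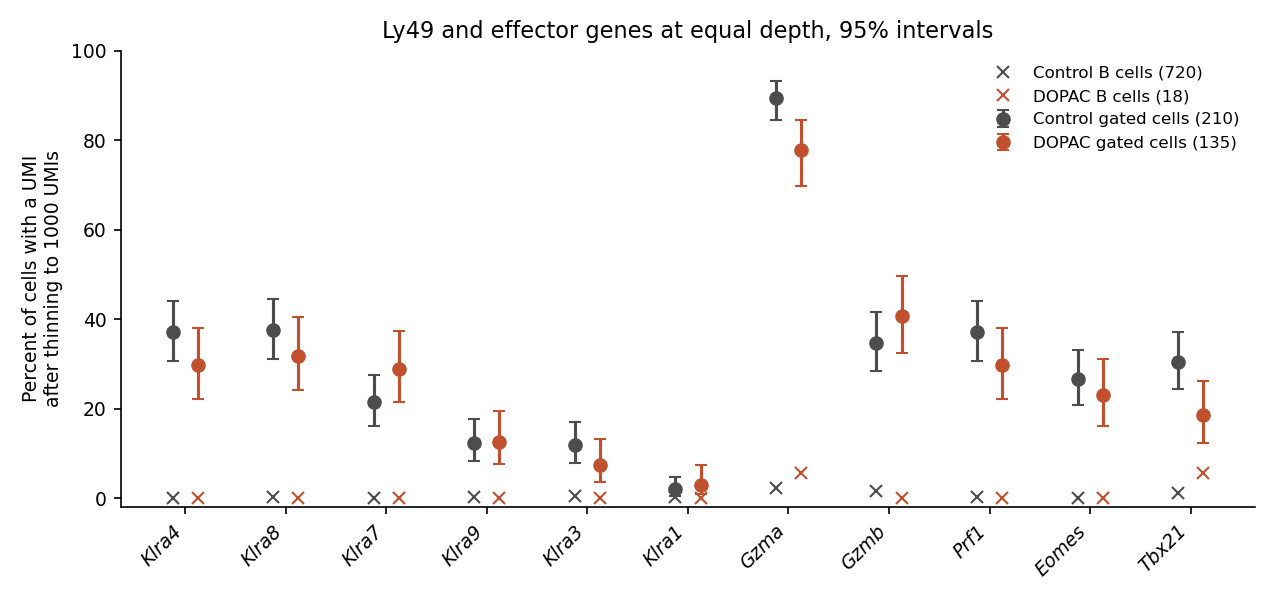
Percent of gated cells with at least 1 UMI after thinning to 1000 UMIs, for 6 Ly49 genes, 3 killing genes, Eomes and Tbx21 in each library, with 95% exact intervals; crosses mark B cells (720 Control and 18 DOPAC cells). Klra4 and Klra8 stand near 37% in Control and near 30% in DOPAC, and Gzma is the gene found in most cells.

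Killing genes differed one from another. Of 15 measured genes of the 23 cytotoxic effector genes, 0 were higher and 5 lower in DOPAC, with a median log2 ratio of -0.40. Gzma, the gene of granzyme A on chromosome 13 at 113093825 to 113100981, gave the most UMIs, with 4526 CPM (4409 to 4645) in Control and 3075 CPM (2904 to 3253) in DOPAC. It was 1.47-fold lower (1.38 to 1.57), just short of the 1.5-fold line. Granzyme B (Gzmb) stood at 568 CPM (527 to 612) and 570 CPM (498 to 650), with no detectable difference. Perforin (Prf1), which opens the target membrane, stood at 466 CPM (429 to 505) and 351 CPM (295 to 415), 1.33-fold lower (1.1 to 1.61). The granule protein gene Nkg7 was called lower, with 1596 CPM (1527 to 1668) and 873 CPM (783 to 971), a 1.83-fold difference (1.63 to 2.06). Cathepsin W (Ctsw) was 2.17-fold lower (1.62 to 2.95), Rab27a, needed for granule docking, 2.14-fold, and the fusion protein gene Stx11 1.85-fold. Fas ligand (Fasl) went from 146 CPM to 94.2 CPM, 1.55-fold lower (1.08 to 2.27). Requiring both NK receptors, which left 97 and 23 cells, gave log2 ratios of -0.56 for Nkg7, -0.14 for Fasl and -0.04 for Rab27a, all short of the line, and Stx11 had -0.44 with up to 2 UMIs of C1qa, C1qb and Csf1r allowed. Thus 5 granule or death ligand genes were lower while Gzmb and the granzyme inhibitor Serpinb9 (646 CPM and 616 CPM) were level between libraries. In thinned cells Gzma was found in 89.5% (84.6 to 93.3) of Control and 77.8% (69.8 to 84.5) of DOPAC cells, and in 2.22% and 5.56% of B cells.

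Signalling adaptors of the activating receptors had the lowest median of the 25 lists. Of 14 measured adaptor and proximal kinase genes, 0 were higher and 9 lower, with a median log2 ratio of -0.73. Tyrobp (DAP12), the partner of activating Ly49 receptors, stood at 1707 CPM (1635 to 1781) in Control and 960 CPM (865 to 1062) in DOPAC. It was 1.78-fold lower (1.59 to 1.99). Fcer1g, the partner of NKp46 and CD16, was 1.76-fold lower (1.57 to 1.98) at 1544 CPM and 876 CPM. The kinase Syk, which binds both adaptors, was 1.81-fold lower (1.27 to 2.64), and the exchange factor Vav1 2.60-fold lower (1.34 to 5.61). Syk had a log2 ratio of -0.51 in cells of 3000 to 10000 UMIs, short of the line. The phosphatase Inpp5d (SHIP1) was 1.68-fold lower (1.43 to 1.97), but its log2 ratio was -0.28 when the gate was applied to cells thinned to 1000 UMIs (61 and 52 cells). In contrast Cd247, the CD3 zeta chain, stood at 269 CPM and 267 CPM, and Hcst (DAP10), the partner of NKG2D, at 319 CPM and 351 CPM. In other NK cells, those without Itga2, Gzmc or Cxcr6, the median of the list was -0.72. It was -0.41 in T cells, -0.41 in B cells and 0.03 in macrophages. How much RNA from other cells contributed to these genes in the gated cells was not tested.

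Among the NK identity genes, 0 of 17 were higher and 5 lower, with a median of -0.37, and Tyrobp, Fcer1g and Nkg7 among these were also on the lists above. Among 17 measured NKG2 and other activating receptor genes, 1 was higher and 4 lower, with a median of -0.30. NKG2D (Klrk1) stood at 478 CPM and 387 CPM, and the NKG2 partner Cd94 (Klrd1) at 435 CPM and 333 CPM, both within 1.5-fold. Klrb1a, a relative of NK1.1, went from 84 UMIs to 8 and was 3.28-fold lower (1.59 to 7.86). Crtam, an adhesion receptor of killer cells, was 2.22-fold lower, with a log2 ratio of -0.39 when at least 2 Itga2 UMIs were required. Cd160 was the member called higher, on 19 and 13 UMIs, and its interval (0.993 to 4.67) includes 1.

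**Figure D4:**
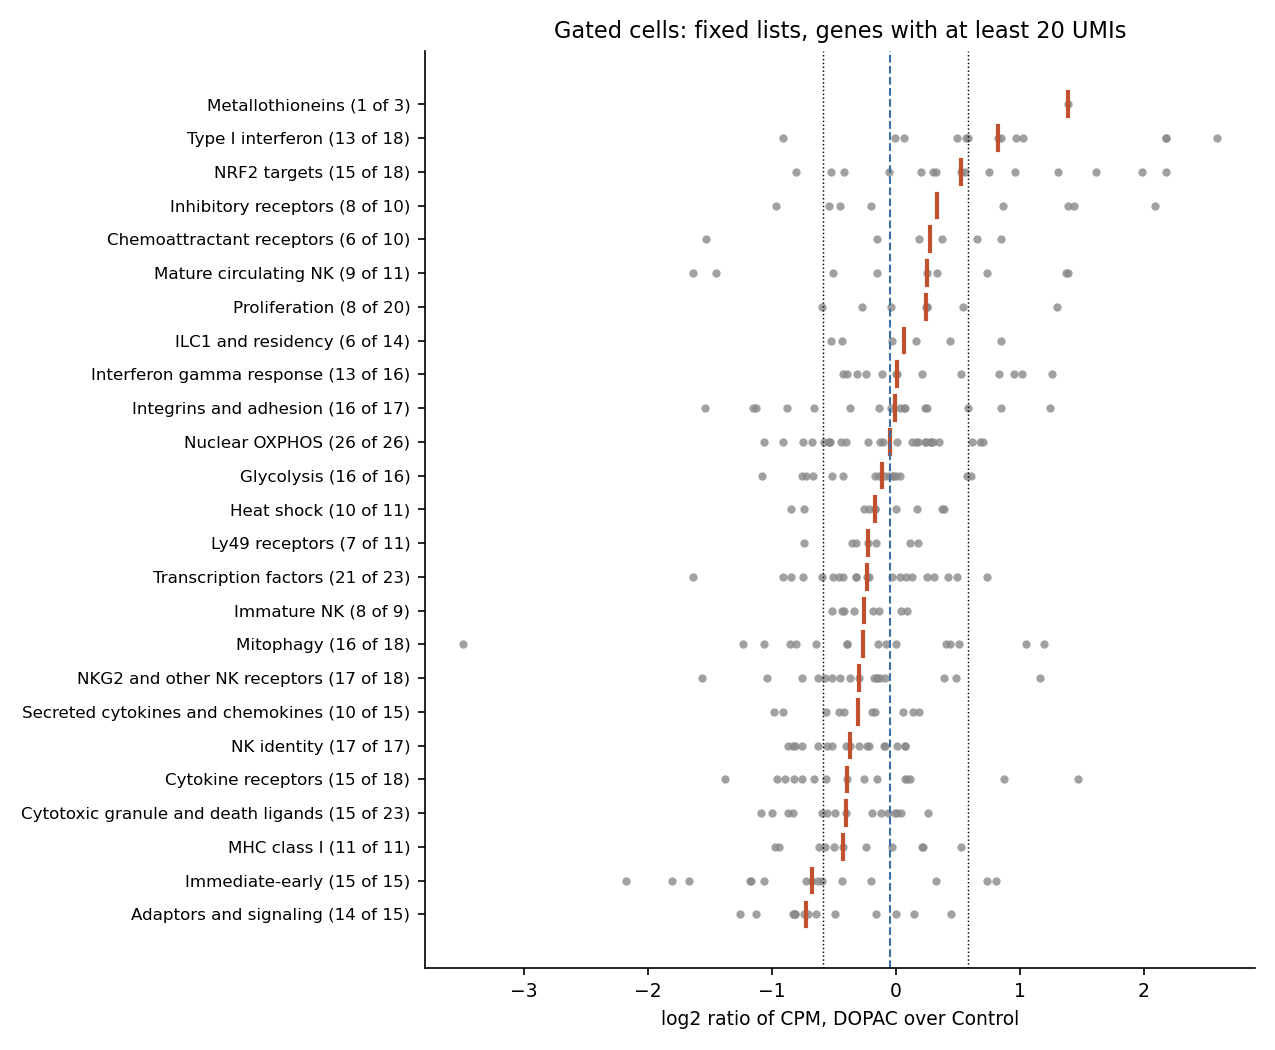
Log2 ratio of DOPAC over Control in the gated cells for the measured genes of 25 lists (grey points), the median of each list (orange ticks), the median of all tested genes at -0.05 (blue dashed line) and 1.5-fold in either direction (dotted lines). The type I interferon and NRF2 lists have medians of 0.82 and 0.52, and the adaptor and immediate-early lists of -0.73 and -0.68.

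Maturation genes gave no single direction. NK cells pass from CD27-positive to CD11b-positive and KLRG1-positive stages, helped by T-bet and Zeb2, and need Klf2 and S1P receptors to leave tissues. Of 9 measured maturation genes, 3 were higher and 2 lower, with a median of 0.25 (0.03 without the cells rich in myeloid RNA). Of 8 measured genes of immature cells 0 were called, with a median of -0.26. Klf2 stood at 395 CPM (361 to 431) in Control and 125 CPM (92.3 to 165) in DOPAC, 3.17-fold lower (2.36 to 4.34). The mast cell protease gene Cma1, expressed in mature mouse NK cells, was 3.08-fold lower (1.42 to 7.95). On the other side Ly6c2 was 2.58-fold higher (1.74 to 3.8), Klrg1 2.59-fold (1.28 to 5.15) and Zeb2 1.66-fold (1.37 to 2.0). Klrg1 rested on 21 and 17 UMIs. Zeb2 fell short of the line or changed direction in 6 of 13 alternatives, with a log2 ratio of -0.39 in the thinned gate. In DOPAC, 1 cell held 21 of its 172 UMIs, and the 2 cells rich in myeloid RNA held 14. For Ly6c2, 1 DOPAC cell held 12 of 50 UMIs, but its call was kept under every alternative. CD11b (Itgam) was within 1.5-fold at 67.7 CPM and 78.9 CPM. Cd27 and Tcf7, genes of less mature cells, stood at 116 CPM and 101 CPM in Control and 84.0 CPM and 68.7 CPM in DOPAC, neither called. In other NK cells the log2 ratios of Klf2, Ly6c2 and Zeb2 were -2.17, 0.94 and 0.08. In T cells that of Klf2 was -3.58.

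Lineage factors of NK cells were mostly within 1.5-fold. Of 21 measured transcription factors, 1 was higher and 5 lower, with a median of -0.23. Tbx21 stood at 313 CPM and 265 CPM, Id2 at 536 CPM and 662 CPM, and Runx3 at 478 CPM and 639 CPM. Lower were Nfil3, which starts the NK lineage, by 1.97-fold (1.17 to 3.50), Tox by 1.70-fold (1.34 to 2.17) and Irf8 by 1.52-fold (1.35 to 1.71). Each call was lost under some alternatives: Nfil3 had a log2 ratio of -0.52 with both NK receptors or with at least 2 Itga2 UMIs required and of -0.55 in the thinned gate. Tox had -0.53 in the thinned gate and -0.50 in cells of 3000 to 10000 UMIs. Irf8 lay between -0.48 and -0.57 under 4 alternatives, among them scaling by the median of gene ratios. The 14 genes of type 1 innate lymphoid cells had 6 measured members, with a median of 0.06 and 1 called higher. That was Itga1, the gene of CD49a, on 15 and 8 UMIs, and its 1.71-fold difference has an interval (0.626 to 4.28) that includes 1.

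Few secreted factors were called apart between libraries. Ccl5, on chromosome 11 at 83525778 to 83530518, gave the most UMIs, at 8579 CPM (8418 to 8742) in Control and 8901 CPM (8609 to 9201) in DOPAC. That is 1.04-fold higher with an interval (0.998 to 1.08) that includes 1. Ccl3, a chemokine that draws other leukocytes, stood at 631 CPM (587 to 676) and 333 CPM (279 to 396), 1.89-fold lower (1.57 to 2.29). Xcl1, which draws cross-presenting dendritic cells, stood at 915 CPM and 616 CPM, 1.48-fold lower (1.29 to 1.71). Ccl4 stood at 1013 CPM and 736 CPM, and Ifng, the gene of interferon gamma, at 140 CPM and 158 CPM. Over all tested genes 13.9% were higher and 18.7% lower. Of 10 measured secreted factors, 0 were higher and 2 lower, with a median of -0.30, so the lower count is near the share over all genes. The other called gene was Tnf, on 37 and 5 UMIs, with a log2 ratio of 0.16 when both NK receptors were required. The log2 ratio of Ccl3 was -1.35 in other NK cells and 0.39 in T cells.

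Of 15 measured cytokine receptor genes, 2 were higher and 6 lower, with a median of -0.39. Il2rb, shared by the receptors of IL-2 and IL-15, stood at 1002 CPM and 1051 CPM. Il12rb2 was also within 1.5-fold, at 824 CPM and 741 CPM. Both chains of the IL-18 receptor were lower: Il18r1 by 1.59-fold (1.34 to 1.88) and Il18rap by 1.87-fold (1.55 to 2.27). In the thinned gate Il18r1 had a log2 ratio of -0.09, and Il18rap kept its call under every alternative. The interferon receptor genes Ifngr1 and Ifnar2 were lower by 1.70-fold (1.49 to 1.93) and 2.74-fold (1.63 to 4.92). Ifngr1 had log2 ratios of -0.47 with both NK receptors required and -0.55 in the thinned gate. Tgfbr1, a TGF-beta receptor, was 1.81-fold higher (1.21 to 2.69), with a log2 ratio of -0.26 when both NK receptors were required. Il15ra was 2.74-fold higher (1.16 to 6.38) on 14 and 12 UMIs. Of 6 measured receptors for attractants, 2 were higher and 1 lower, with a median of 0.28.

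Adhesion genes were called in both directions, which is not particular to this list. Of 16 measured integrins and adhesion genes, 2 were higher and 5 lower, with a median of -0.0048, against 13.9% higher and 18.7% lower over all tested genes. The higher ones were Itgav and Itga1, the latter on 15 and 8 UMIs with an interval that includes 1. Itgav, the alpha chain that pairs to bind TGF-beta and vitronectin, stood at 116 CPM (98.1 to 137) in Control and 275 CPM (226 to 332) in DOPAC, 2.37-fold higher (1.83 to 3.05). Icam1, the ligand of LFA-1, stood at 333 CPM (302 to 366) and 112 CPM (81.4 to 150), 2.97-fold lower (2.17 to 4.15). The alpha 4 integrin Itga4 and its partner Itgb7 were 1.85-fold (1.58 to 2.17) and 2.36-fold lower, and Cd2 was 2.29-fold lower (1.54 to 3.53). Itgb7 had a log2 ratio of -0.48 in the thinned gate and Cd2 of -0.43 with at least 2 Itga2 UMIs required, both short of the line. Itgav and Icam1 differed in the same directions in other NK cells, with log2 ratios of 0.95 and -1.43. In thinned cells Itgav was found in 8.10% of gated Control cells and 23% of gated DOPAC cells, and in 11.2% and 0% of B cells. Whether B cells make Itgav themselves was not tested, so these B cell shares set no background for it.

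Of 8 measured inhibitory receptors, 4 were higher and 1 lower, with a median of 0.33 and few UMIs each. Ctla4 had 14 and 19 UMIs, or 11.1 CPM and 48.4 CPM, 4.34-fold higher (2.06 to 9.35). Havcr2 (TIM-3) had 12 and 10 UMIs, 2.66-fold higher (1.03 to 6.73) but short of the line, with a log2 ratio of 0.55, when at least 2 Itga2 UMIs were required, and Lilrb4a had 69.3 CPM and 125 CPM, 1.80-fold higher (1.24 to 2.58), with a log2 ratio of -0.29 when both NK receptors were required. The checkpoint genes Pdcd1 and Lag3 were nearly absent, with 1 and 0 UMIs in Control and 1 in DOPAC for each.

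Immediate-early genes are switched on within minutes of a stimulus. Of 15 measured, 2 were higher and 10 lower in DOPAC, with a median of -0.68. Junb stood at 1735 CPM (1663 to 1809) in Control and 382 CPM (323 to 448) in DOPAC, 4.54-fold lower (3.85 to 5.40). Ier2 was 3.55-fold lower (2.67 to 4.81), Jund 3.21-fold (2.69 to 3.85), and Jun and the NF-kB inhibitor Nfkbia 2.27-fold each, though Jun had a log2 ratio of -0.45 with both NK receptors required. Fos, another partner in AP-1, was within 1.5-fold, with a log2 ratio of -0.20, and Nr4a2 had 0.33. Tnfrsf9 (4-1BB), a costimulatory receptor induced on activation, was 1.74-fold higher (1.40 to 2.16), and Egr1 1.64-fold, the latter with a log2 ratio of -0.64 when both NK receptors were required. Junb, Jund, Ier2, Nfkbia and Tnfrsf9 kept their calls under every alternative tried. The list median was -1.0 in other NK cells, -0.99 in T cells, -0.24 in B cells and -0.04 in macrophages. Junb itself was lower in other NK cells (-2.24), T cells (-2.20) and macrophages (-0.84). With 1 library a group, library preparation and treatment cannot be told apart here.

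Genes that type I interferons induce had the highest median of the lists with more than 1 measured gene, 0.82, with 7 of 13 measured genes higher and 1 lower. Rsad2 (viperin), an antiviral enzyme, had 16 and 31 UMIs, or 12.7 CPM and 78.9 CPM, 6.19-fold higher (3.29 to 12.1). Ifit1, which binds foreign RNA ends, had 11 and 16 UMIs, or 8.76 CPM and 40.7 CPM, 4.65-fold higher (2.03 to 11.1). Ifi27l2a had 74 and 105 UMIs, or 58.9 CPM and 267 CPM, 4.54-fold higher (3.34 to 6.19). Irf7, itself an interferon-induced factor, was 1.98-fold lower (1.14 to 3.68), and Isg15 and Bst2 had log2 ratios of -0.01 and 0.06. The members thus differed in direction. The list gave 743 UMIs in 171 of 210 Control cells (81.4%) and 410 UMIs in 100 of 135 DOPAC cells (74.1%), and the 5 richest cells held 21.5% and 36.8% of them. A single DOPAC cell held 20 of the 31 Rsad2 UMIs, 6 of the 16 Ifit1 UMIs and 31 of the 41 UMIs of Hmox1. Without that cell and its Control counterpart with the most Hmox1 UMIs, the list median was 0.68, and the log2 ratio of Rsad2 went from 2.59 to 1.19 and that of Ifit1 from 2.18 to 1.56. Of the 105 DOPAC Ifi27l2a UMIs, 40 lay in another cell and 17 in 1 of the cells rich in myeloid RNA. Without the richest cell of each library the log2 ratio of Ifi27l2a went from 2.18 to 1.60. When the gate itself was applied to cells thinned to 1000 UMIs, which kept 61 and 52 cells, the list median was -0.16 over 7 genes and the log2 ratio of Ifi27l2a was 0.06. In thinned gated cells Ifi27l2a was found in 4.29% and 16.3%, and in B cells, only 18 of them in DOPAC, in 26.8% and 66.7%. B cells served as background for genes they should lack. Whether they make Ifi27l2a themselves was not tested, so their shares set no background for it. In other NK cells the list median was 0.74, in macrophages 0.94 and in T cells 0.18.

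The interferon-stimulated response element, here GAAANNGAAA searched on both strands, was found in the 250 bases before the start of 6 of 12 listed genes with a RefSeq entry (50%), against 936 of 27025 genes (3.46%). Of the 4 with an entry that were called higher, 3 held it. The stretches are printed for Ifit1 and Rsad2, the pair with the highest folds among them, 5′ to 3′ from RefSeq on GRCm38.p6 with the element in capitals, which in both genes reads on the other strand. Ifit1 lies on the plus strand at chr19:34640639-34640888 with matches that begin 104 and 85 bases before the start, and Rsad2 on the minus strand at chr12:26456453-26456702 with 1 that begins 120 bases before it. A match describes the letters only.
Ifit1: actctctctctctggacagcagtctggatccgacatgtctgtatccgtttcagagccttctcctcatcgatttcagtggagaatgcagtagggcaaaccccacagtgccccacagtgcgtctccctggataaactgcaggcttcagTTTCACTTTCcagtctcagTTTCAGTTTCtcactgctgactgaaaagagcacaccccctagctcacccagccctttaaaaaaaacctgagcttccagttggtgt
Rsad2: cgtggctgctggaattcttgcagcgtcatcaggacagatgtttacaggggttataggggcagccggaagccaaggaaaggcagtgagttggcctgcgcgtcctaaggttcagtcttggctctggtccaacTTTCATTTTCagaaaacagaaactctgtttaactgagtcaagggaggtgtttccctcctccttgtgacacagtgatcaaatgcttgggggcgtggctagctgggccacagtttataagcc

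Genes induced by interferon gamma, which NK cells make and also answer, had a median of 0.01 (0.41 without the cells rich in myeloid RNA), with 4 of 13 higher and 0 lower. The higher ones were guanylate binding proteins and an immunity-related GTPase, among them Gbp4, 1.91-fold higher (1.21 to 2.97, with a log2 ratio of 0.24 at a mitochondrial limit of 5%), and Gbp3, 2.37-fold higher on 27 and 20 UMIs, with a log2 ratio of 0.26 in the thinned gate. In other NK cells the list median was 0.86 and in macrophages 1.43. Of 11 MHC class I genes, also interferon targets, 0 were higher and 3 lower, with a median of -0.43. H2-D1 stood at 1605 CPM (1536 to 1677) and 832 CPM (745 to 928), 1.93-fold lower (1.71 to 2.17), and H2-Q7 was 1.98-fold lower (1.62 to 2.44). The shared light chain B2m gave 2253 CPM (2171 to 2338) in Control. In DOPAC it gave 2627 CPM (2469 to 2792), which is 1.17-fold higher (1.08 to 1.25). H2-D1 and other class I genes are near-copies, so their reads may be split between them. H2-D1 and H2-Q7 were lower in other NK cells as well, with log2 ratios of -0.85 and -0.70.

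The targets of NRF2, a factor that answers oxidative and electrophilic stress, had a median of 0.52, with 6 of 15 measured genes higher and 1 lower. Gclm, the regulatory subunit of the enzyme that begins glutathione synthesis, had 16 and 23 UMIs, or 12.7 CPM and 58.5 CPM, 4.60-fold higher (2.32 to 9.31), and the catalytic subunit Gclc was 1.65-fold higher (1.03 to 2.61), with a log2 ratio of 0.53 in the thinned gate. Txnrd1, thioredoxin reductase, had 79 and 61 UMIs, or 62.9 CPM and 155 CPM, 2.47-fold higher (1.74 to 3.49). Hmox1, heme oxygenase, had 33 and 41 UMIs, or 26.3 CPM and 104 CPM, 3.97-fold higher (2.45 to 6.48), and Nqo1 had 0 UMIs in both. Single cells carried much of this. The DOPAC cell named above held 31 of 41 Hmox1 UMIs and 196 of 883 UMIs of the ferritin gene Fth1, and 322 of the 1676 UMIs of the list. That cell had 6441 UMIs, 9 of Klra4, 25 of Ccl5, 1 of Cd74 and 0 of Lyz2. Without it and its Control counterpart the list median was 0.21 and the log2 ratio of Hmox1 0.15, while Txnrd1 kept 1.26. For Gclm another cell held 16 of the 23 DOPAC UMIs, and without the richest cell of each library its log2 ratio went from 2.17 to 0.77. In the thinned gate the list median was -0.21 and the log2 ratio of Hmox1 -0.01, and the list median in other NK cells, T cells and macrophages was 0.25, -0.02 and 0.16.

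The antioxidant response element, here TGACNNNGC on both strands, was found before the starts of 4 of 15 listed genes with an entry (26.7%) and 3112 genes overall (11.5%). Of the 3 with an entry that were called higher, 2 held it. Gclm is shown as the gene of highest fold, on the plus strand at chr3:122245307-122245556 of GRCm38.p6 from RefSeq, with the element in capitals, on the other strand and beginning 134 bases before the start.
Gclm: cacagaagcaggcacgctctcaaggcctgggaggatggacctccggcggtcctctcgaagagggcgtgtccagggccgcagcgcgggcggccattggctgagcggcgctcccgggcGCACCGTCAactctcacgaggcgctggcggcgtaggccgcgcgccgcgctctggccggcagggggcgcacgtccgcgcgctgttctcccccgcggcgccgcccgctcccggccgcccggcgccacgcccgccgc

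The glycolysis, respiratory chain, mitophagy, heat shock and proliferation lists had medians within 1.5-fold. The glycolysis list had a median of -0.11 with 1 of 16 higher and 4 lower. Pyruvate kinase (Pkm) and the phosphofructokinase gene Pfkp were 1.72-fold (1.25 to 2.4) and 1.68-fold (1.23 to 2.33) lower, and lactate dehydrogenase (Ldha) had a log2 ratio of 0.58. With at least 2 Itga2 UMIs required (133 and 49 cells), Pkm and Pfkp had log2 ratios of -0.16 and -0.41, and in the thinned gate Pfkp had -0.17. The respiratory chain list had a median of -0.05 with 3 of 26 higher and 4 lower, among them Atp5e, 1.62-fold higher (1.38 to 1.91), and Cox5a, 2.14-fold lower. Of 16 measured mitophagy genes, 2 were higher and 6 lower, with a median of -0.27. Sqstm1 (p62), an autophagy adaptor, stood at 719 CPM and 395 CPM, 1.82-fold lower (1.54 to 2.17), with a log2 ratio of -0.52 in the thinned gate. Bnip3, a mitophagy receptor, had 7 and 10 UMIs, under the minimum. Heat shock genes had a median of -0.17 with 0 of 10 higher and 2 lower, of which the co-chaperone gene Dnajb1 was 1.88-fold lower (1.16 to 3.18). With both NK receptors required, Dnajb1 and Atp5e had log2 ratios of -0.23 and 0.24. Proliferation genes had 8 of 20 measured, with a median of 0.24, 1 higher and 1 lower. Of the metallothioneins, Mt1 alone was measured, 2.60-fold higher on 32 and 26 UMIs, of which the Hmox1-rich DOPAC cell held 13, and its log2 ratio was 0.45 without that cell and its Control counterpart.

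Genes outside the lists were named by rank among 1054 genes with 50 UMIs or more and an interval that leaves out 1. Another 163 that differed the same way in both macrophages and B cells had been set aside. Highest in DOPAC was the phosphatase gene Ptpn3, with 28 UMIs (22.3 CPM) in Control and 39 (99.3 CPM) in DOPAC, 4.45-fold higher (2.67 to 7.51). These UMIs came from 17 and 25 cells, and its log2 ratio in other NK cells was 0.38. Hmox1 followed, and then the host gene of a microRNA, Mir22hg, 3.86-fold higher (2.29 to 6.54) with 26 and 32 cells and a log2 ratio of 1.15 in other NK cells. Ptgs2 (COX-2), the enzyme of prostaglandin synthesis, was 3.65-fold higher, but its 32 DOPAC UMIs lay in 6 cells and its log2 ratio was -1.12 in the thinned gate. Of these UMIs, 15 lay in the 2 DOPAC cells rich in myeloid RNA and 14 in the Hmox1-rich DOPAC cell. The other genes ranked higher had log2 ratios of 1.64 (Polr2l), 1.63 (Gmcl1 and Usp1), 1.60 (Hmgn2), 1.57 (Ccng1) and 1.51 (Ndrg1). Lowest were Mrpl12, a mitochondrial ribosome gene, with 48 and 2 UMIs, and Cebpg, with 62 and 3. The linker histone gene Hist1h1e had 129 and 8 UMIs, 5.04-fold lower (2.48 to 11.9), and the adaptor gene Nck2 had 139 and 10, 4.35-fold lower (2.29 to 9.27). Fam173a, Adk, Tagap, Marc2, Ier2 and Ier5l completed the lower side, with log2 ratios of -2.20, -1.91, -1.86, -1.80, -1.80 and -1.75. In the thinned gate the log2 ratios of Cebpg, Ier5l and Ccng1 were -0.33, -0.0051 and 0.44, all short of the line. Tagap was as low in other NK cells (-1.82), whereas Adk had a log2 ratio of -0.08 there and of 0.21 in gated cells with both NK receptors.

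Effector genes were among those that varied most between the gated cells. Variance over mean of UMIs in cells thinned to 1000 UMIs would be near 1 for pure sampling, and the median over 1079 genes was 1.13 in Control and 1.12 in DOPAC. Ccl5 reached 5.25 and 7.98, Gzma 3.58 and 4.01, Ccl4 3.94 and 2.89, Xcl1 2.62 and 2.32 and Klra8 2.07 and 2.25. Cd74 reached 4.52 and 2.47, mostly in the few cells rich in myeloid RNA. The potassium channel gene Kcnq5 was also variable, with 3.41 and 3.76. So were the abundant RNAs of Malat1 (2.56 and 4.54) and Tmsb4x (2.88 and 2.92). The measure was not adjusted for the mean level of a gene, so this rank is not particular to effector genes. Cells with a Cd27 UMI, 85 in Control and 27 in DOPAC, were set against the 125 and 108 without. In both libraries 22 of 3156 tested genes (0.697%) were higher and 27 (0.856%) lower in cells with Cd27. Cd27, which sets the split, is 1 of the 22 and no finding. Btbd11 was higher by 1.52-fold and 1.57-fold, and the kinase gene Cdk14 was lower by 2.0-fold and 2.47-fold. Gzma, which increases as NK cells mature, was 1.44-fold and 1.38-fold lower in cells with Cd27, short of the line. Cells with Cd27 were also deeper, with median totals of 6039 and 3033 UMIs against 5328 and 2488.

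Set against NK cells with Gzmc or Cxcr6 and no Itga2, the gated cells had more RNA of Klra4, Klra8, Klra9 and Ccl5 and less of Inpp4b and Ikzf2. Gzmc and Cxcr6 define that group, so neither is a finding. It had 14 cells in Control and 66 in DOPAC, and a gene was called when it passed 1.5-fold the same way in both libraries. Of 4694 tested genes, 198 were higher in the gated cells (4.22%), Itga2 among them, and 241 lower (5.13%), Gzmc among them. Of 5 measured Ly49 genes, 3 were higher. Klra4 stood at 676 CPM against 198 CPM in Control, 3.42-fold higher (2.15 to 5.79), and at 575 CPM against 205 CPM in DOPAC, 2.81-fold higher (2.14 to 3.72). Klra8 was 3.64-fold (2.23 to 6.39) and 2.41-fold (1.86 to 3.15) higher, and Klra9 2.19-fold and 3.97-fold. In the Control comparison group, 1 cell held 11 of 18 Klra4 UMIs, 1 held 11 of 16 of Klra8 and 1 held 5 of 8 of Klra9. The intervals do not cover this unevenness between cells. Ccl5 stood at 8579 CPM against 3945 CPM in Control and 8901 CPM against 2269 CPM in DOPAC. Il18rap, a chain of the IL-18 receptor, was 2.0-fold and 2.28-fold higher. Among ranked genes Arhgap6 had 53 UMIs against 0 in Control and 30 against 2 in DOPAC, where 1 gated cell held 14 of the 30. Btbd11 was 2.82-fold and 2.87-fold higher, and Cdk14 3.47-fold and 3.06-fold. Thus Klra4, Klra8, Klra9, Il18rap and Ccl5 were higher in the cells with Itga2 in both libraries.

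Lower in the gated cells was Inpp4b, a lipid phosphatase gene, by 22.1-fold (14.2 to 34.7) in Control and 9.40-fold (4.86 to 20.3) in DOPAC. In Control, 39 of its 56 UMIs in the comparison group lay in 1 cell. Dscam, an adhesion gene known from neurons, was lower by 16.1-fold (12.7 to 20.5) and 4.09-fold (3.01 to 5.64). Ikzf2 (Helios), a transcription factor, stood at 226 CPM against 868 CPM in Control and 219 CPM against 773 CPM in DOPAC. Kit, the stem cell factor receptor, was lower by 3.07-fold and 3.96-fold, and Gpr183 by 10.1-fold and 6.23-fold. Xcl1 was lower by 1.66-fold (1.38 to 1.98) and 1.82-fold (1.55 to 2.15), so the chemokine genes Ccl5 and Xcl1 lay on opposite sides. Spp1, Nrgn and Hspa1b were lower too, but in Control 1 cell held 39 of 41, all 20 and all 17 of their UMIs in the comparison group. In DOPAC, 88 of 97 Hspa1b UMIs were in 1 cell. Of 14 measured cytotoxic effector genes, 1 was higher in the gated cells in both libraries and 1 lower. Fasl was 2.65-fold and 1.81-fold higher, and Ctsw was lower by 1.58-fold and 1.90-fold. Gzma was 2.50-fold higher in the gated Control cells and 1.08-fold lower in the gated DOPAC cells. Gzmb was 1.29-fold higher and 2.08-fold lower. The 14 Control cells limit every value on that side.

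**Figure D5:**
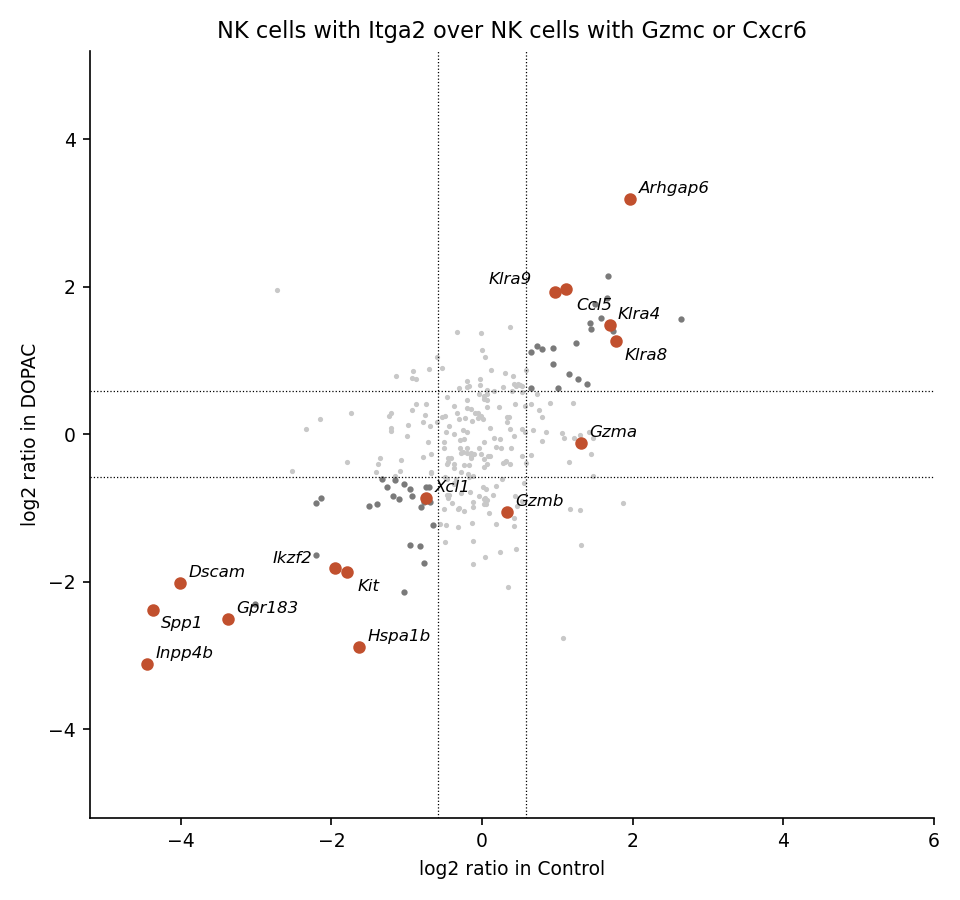
Log2 ratio of the gated cells over NK cells with Gzmc or Cxcr6 in Control (horizontal) and DOPAC (vertical) for 274 genes of the lists and ranks; dark points passed 1.5-fold the same way in both libraries and 15 genes are named. Itga2 and Gzmc, which set the gates, lie outside the range; Klra4, Klra8 and Ccl5 are at the upper right and Inpp4b and Ikzf2 at the lower left.

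NK cells without Itga2, Gzmc or Cxcr6, 176 in Control and 339 in DOPAC, were closer. Of 6323 tested genes, 62 were higher in the gated cells in both libraries (0.981%), Itga2 among them, and 96 lower (1.52%). How many of these cells carried Itga2 RNA that was not sampled at their depth was not tested. Cd247 was 1.55-fold higher in both libraries, at 269 CPM against 174 CPM in Control and 267 CPM against 172 CPM in DOPAC. Klra4 was 1.61-fold (1.43 to 1.81) and 1.40-fold (1.18 to 1.65) higher and Ccl5 1.33-fold and 1.44-fold, neither past 1.5-fold in both. Lower were Rora, a factor of innate lymphoid cells, by 1.78-fold (1.48 to 2.14) and 1.80-fold (1.37 to 2.40), Il7r by 2.18-fold and 1.86-fold, and Kit by 1.82-fold and 2.09-fold. Inpp4b was lower by 2.62-fold and 3.42-fold, and the interferon-induced Isg15 by 1.77-fold and 1.84-fold. Cd74 was lower as well, at 762 CPM against 2309 CPM in Control and 300 CPM against 680 CPM in DOPAC. Inpp4b and Kit were thus lower against both other groups of NK cells.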

How the data were processed

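The deposited values are raw counts, whole numbers of UMIs per gene and cell barcode, which the authors made. Per the file headers, they ran Cell Ranger 7.0.1. The genome was GRCm38 per the submitters' processing notes, and library chemistry, strand and filters are not given in the sources used here. The libraries held 9629 Control and 10777 DOPAC barcodes, 100938364 and 47769958 UMIs and 32285 genes each, and 1171 and 680 barcodes exceeded the mitochondrial limit. Of barcodes that met all other conditions of the gate, 1 of 211 and 2 of 137 exceeded it.

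The 345 members, the gate and all 25 gene lists and 11 marker lists were chosen with earlier results of these data known. All listed genes could be named. So could the 10 highest and 10 lowest between libraries and, by the smaller of both libraries' ratios, against NK cells with Gzmc or Cxcr6. Mitochondrial, ribosomal protein, haemoglobin and antigen receptor segment genes and unnamed gene models were left out of these ranks, and a few genes are not reported here.

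UMIs were summed per library and gate. Exact Poisson intervals for CPM, exact conditional intervals for ratios, Clopper-Pearson intervals for shares and Newcombe intervals for differences of shares cover counting error only, at 95%. A fold against 0 UMIs is a bound against 3 UMIs over the gated cells, and the limit on a share of 0 is 3 cells. Thinning drew 1000 UMIs per cell without replacement with a fixed seed. T cells were gated on at least 2 UMIs of Cd3d, Cd3e and Cd3g together, B cells on at least 2 of Cd79a, both with 0 of Ncr1 and Klrb1c, and macrophages on at least 2 of C1qa, C1qb and Csf1r. Doublets were kept. Scrublet marked 339 Control cells (4.01%), and in DOPAC 0% at its automatic threshold, so that the 815 highest scores (8.07%) were taken as doublets. It marked 3 Control and 2 DOPAC members, and removing marked cells was an alternative. The scripts were tested on simulated data. Python 3.11.15, numpy 2.4.6, scipy 1.17.1, pandas 2.3.3, scanpy 1.11.5 and matplotlib 3.10.9 were used.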

Additional observations from a re-analysis of the deposited data

How the results depend on the processing

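No paired analysis was possible because each group has 1 library, and for the same reason no library could be left out. The alternatives on myeloid-rich cells, on single cells with the most UMIs of a gene, on up to 2 UMIs of C1qa, C1qb and Csf1r, and all those for the type I interferon, immediate-early and NRF2 lists were chosen after seeing the data. The share of kept cells in the gate was lower in DOPAC under all 10 alternatives tried, although in the thinned gate the interval of the difference (-0.437 to 0.0377 points) includes 0. It was 1.15% in Control and 0.228% in DOPAC when both NK receptors were required, 0.731% and 0.537% in the gate on thinned cells, 4.85% and 0.845% in cells of 3000 to 10000 UMIs, 1.58% and 0.485% with at least 2 Itga2 UMIs, and 4.51% in Control with up to 2 UMIs of C1qa, C1qb and Csf1r. Genes higher and lower in DOPAC numbered 612 and 789 in the thinned gate, 202 and 450 with at least 100 UMIs, 4948 and 2236 with at least 1 UMI, and 302 and 492 at a 2-fold line. More genes were called higher than lower with at least 1 UMI, with both NK receptors required (1009 and 964) and with at least 2 Itga2 UMIs (1053 and 1012). The same held with scaling by the median of gene ratios (1243 and 1025), whereas the main setting gave 972 and 1301. The minimum and the 2-fold line change by construction how many genes can be called. Against NK cells with Gzmc or Cxcr6, genes higher and lower numbered 82 and 71 with both NK receptors, 61 and 36 with at least 100 UMIs, and 48 and 47 at the 2-fold line. Those lower numbered 107 in the thinned gate and 156 in cells of 3000 to 10000 UMIs. In the thinned gate the list medians were -0.77 for cytotoxic genes, -0.16 for type I interferon genes (reversed) and -0.21 for NRF2 targets. Reversed with both NK receptors required were the log2 ratio of Klra1 (0.22), the log2 ratio of Slc7a11 (-0.64), the log2 ratio of Tgfbr1 (-0.26), the log2 ratio of Tnf (0.16), the log2 ratio of Lilrb4a (-0.29), the log2 ratio of Egr1 (-0.64), the log2 ratio of Ptgs2 (-0.64) and the log2 ratio of Adk (0.21). Reversed in the thinned gate were the log2 ratio of Zeb2 (-0.39), the log2 ratio of Hmox1 (-0.0051), the log2 ratio of Slc7a11 (-1.36) and the log2 ratio of Ptgs2 (-1.12). Both settings leave fewer cells, and the cause was not tested otherwise. Of 137 genes tried, 91 were at least 1.5-fold apart, and 48 of these stayed so under every alternative. Of 1168 alternative values of the 91 genes, 12 were reversed and 80, some of them the same, were within 1.5-fold. Scaling by the median of gene ratios moved the median of all genes from -0.05 to 0.04. Depth limits genes of few UMIs: a gene with 0 UMIs in the gated DOPAC cells can stand at up to 9.39 CPM.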
